A study of Arabidopsis thaliana with 6 samples.

Results

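Defensin-like genes encode small secreted peptides rich in cysteine. They were taken as every row of the deposited expression table whose description names a defensin-like protein, which gave 254 of 27779 rows. Searching the descriptions for defensin in any form returned the same 254. Transcripts were measured by RNA-seq in whole siliques, the fruits that enclose the developing seeds, of Arabidopsis thaliana at 3 days after pollination. The 3 WT libraries were compared with 3 libraries of agc1-4, a mutant named for the AGC1-4 protein kinase. In the column headers the WT libraries are named Col and those of agc1-4 sr. The labels do not describe the mutant allele, the plants' age or how many siliques went into a library. They do not say that libraries came from separate plants either, so p-values rest on a spread that may be technical. AGC1-4, taken from background knowledge to be AT5G40030, stood at 0.63, 1.78 and 1.01 FPKM in WT and at 0.09, 0.39 and 0.07 in agc1-4. FPKM are fragments per length of the gene and per size of the library, and values of a genotype stand in the order of its replicates 1, 2 and 3 throughout. The groups did not overlap, and the log2 fold change, agc1-4 over WT, was -2.66 with an SE of 0.54 (edgeR's quasi-likelihood test, adjusted p = 9.83e-04). Total estimated counts were 7973368 to 11812934 per library.

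Defensin-like peptides carry a signal peptide that sends them out of the cell and a short mature part folded by disulfide bonds between conserved cysteines. The classical plant defensins of the PDF genes are known for antifungal activity and, for some, for induction by jasmonate and ethylene. Others act between cells in reproduction: the LURE1 peptides of synergid cells attract pollen tubes, and SCR, after which the SCRL genes are named, is the pollen ligand of self-incompatibility in relatives of Arabidopsis. Most members have no assigned function and carry only a number, here written DEFL followed by the number in the description, or an LCR name for low-molecular-weight cysteine-rich proteins.

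Of the 254 rows, 252 had a locus in the RefSeq annotation (assembly TAIR10.1) and 2 were gene models outside named loci. The coding sequences of these 252 ran from 174 to 567 bases, with a median of 252, and 245 were split over 2 coding exons. They held 4 to 19 cysteine codons, with a median of 8; exactly 8 were found in 107 genes and at least 6 in 246. The coding sequences of 8 genes that the results turn on are shown from the RefSeq annotation, 5′ to 3′, with every in-frame cysteine codon in capitals; of SCRL10 the last 300 bases are shown. They are the most abundant member, the most abundant member that rose, a pair of members that rose by large factors, a pair of close relatives that both rose, and a pair of close relatives of which 1 fell and the other was not called.
SCRL10 (AT4G15735): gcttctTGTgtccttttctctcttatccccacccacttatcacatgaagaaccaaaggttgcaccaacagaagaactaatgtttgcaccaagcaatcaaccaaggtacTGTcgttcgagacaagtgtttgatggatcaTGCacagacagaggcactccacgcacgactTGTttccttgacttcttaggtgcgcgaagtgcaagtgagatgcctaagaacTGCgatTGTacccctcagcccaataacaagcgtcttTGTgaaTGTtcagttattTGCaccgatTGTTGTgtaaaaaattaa
DEFL85 (AT5G55132): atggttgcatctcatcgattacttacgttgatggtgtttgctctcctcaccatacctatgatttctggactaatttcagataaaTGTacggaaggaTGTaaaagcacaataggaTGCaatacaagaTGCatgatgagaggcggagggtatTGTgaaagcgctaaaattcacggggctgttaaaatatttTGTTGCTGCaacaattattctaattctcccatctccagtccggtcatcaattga
LCR73 (AT2G02147): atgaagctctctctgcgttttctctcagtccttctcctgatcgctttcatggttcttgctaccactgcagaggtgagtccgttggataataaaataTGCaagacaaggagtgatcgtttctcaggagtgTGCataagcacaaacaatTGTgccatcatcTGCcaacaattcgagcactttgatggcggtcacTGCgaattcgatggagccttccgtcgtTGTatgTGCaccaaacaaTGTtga
DEFL47 (AT3G16895): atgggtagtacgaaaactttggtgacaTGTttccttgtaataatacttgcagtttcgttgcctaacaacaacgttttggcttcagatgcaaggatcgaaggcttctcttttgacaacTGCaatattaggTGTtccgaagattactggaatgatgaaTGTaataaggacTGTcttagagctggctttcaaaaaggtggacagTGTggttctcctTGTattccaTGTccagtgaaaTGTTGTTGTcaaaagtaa
LCR48 (AT3G48231): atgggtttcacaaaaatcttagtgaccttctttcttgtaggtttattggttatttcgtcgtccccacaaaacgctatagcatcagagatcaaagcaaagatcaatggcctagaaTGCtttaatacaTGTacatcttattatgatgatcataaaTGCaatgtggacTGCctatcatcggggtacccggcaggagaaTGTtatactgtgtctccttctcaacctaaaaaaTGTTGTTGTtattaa
LCR49 (AT2G33233): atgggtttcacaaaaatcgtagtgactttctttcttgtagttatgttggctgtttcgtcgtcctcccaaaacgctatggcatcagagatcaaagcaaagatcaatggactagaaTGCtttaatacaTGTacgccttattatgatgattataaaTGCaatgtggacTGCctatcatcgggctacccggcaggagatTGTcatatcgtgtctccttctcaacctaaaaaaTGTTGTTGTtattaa
DEFL68 (AT1G24062): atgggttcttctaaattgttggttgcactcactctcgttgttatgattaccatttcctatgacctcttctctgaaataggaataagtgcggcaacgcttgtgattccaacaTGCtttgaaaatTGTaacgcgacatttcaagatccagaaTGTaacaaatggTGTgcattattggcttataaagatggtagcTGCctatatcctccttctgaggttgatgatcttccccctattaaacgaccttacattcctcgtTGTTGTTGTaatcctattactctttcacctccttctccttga
DEFL69 (AT5G54220): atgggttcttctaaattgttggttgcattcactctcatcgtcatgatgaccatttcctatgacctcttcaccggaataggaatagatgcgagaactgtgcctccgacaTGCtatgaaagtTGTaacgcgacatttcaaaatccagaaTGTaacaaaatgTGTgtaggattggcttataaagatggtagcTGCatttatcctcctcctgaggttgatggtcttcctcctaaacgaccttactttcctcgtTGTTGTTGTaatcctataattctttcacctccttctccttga
In LCR48, LCR49, DEFL47, DEFL68 and DEFL69, 3 cysteine codons stand side by side near the 3′ end. DEFL85 also holds such a run, further from its end. LCR48 and LCR49 had 8 cysteine codons each and encoded proteins of 85.0% identity. DEFL68 and DEFL69 also had 8 each, with proteins of 78.6% identity.

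Several defensin-like genes were among the strongest transcripts of the silique. Of the 254 members, 91 had no count in any library and 163 had at least 1. A mean over the 6 libraries of at least 1 FPKM was reached by 112 members, of at least 10 FPKM by 68 and of at least 100 FPKM by 25, while 3.90% of all rows reached 100 FPKM. SCRL10, whose name marks it as related to the SCR ligands, had 1199, 1222 and 1192 FPKM in WT and 1247, 1201 and 1321 in agc1-4. Only 24 rows of the table had a higher mean, and SCRL10 alone held 14.9% of the counts of all members. The 10 members with the most counts held 53.4%. DEFL85 followed, then AT3G24510 (DEFL259), AT5G44973 (DEFL285) and AT1G13605 (DEFL268), which had WT means of 344 ± 51.1, 285 ± 12.5 and 245 ± 53.5 FPKM (SD, n = 3).

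**Figure D1:**
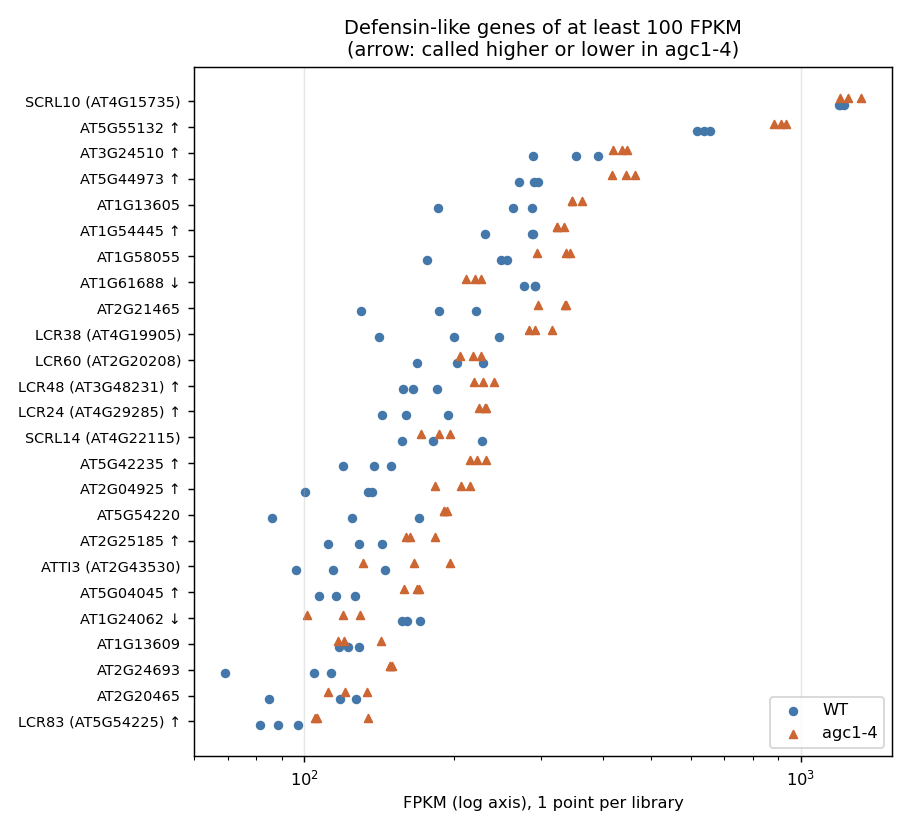
FPKM on a log axis for the 25 members with a mean of at least 100 FPKM, 1 point per library, WT as circles and agc1-4 as triangles. SCRL10 lies at 1192 to 1321 FPKM in all libraries, 11 members with an upward arrow were called higher in agc1-4, and 2 with a downward arrow were called lower.

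The comparison asked which transcripts differ between agc1-4 and WT siliques. Defensin-like genes were more often higher in agc1-4 than lower: 43 were called higher, among them 12 LCR genes, 4 SCRL genes and the trypsin-inhibitor gene ATTI4, and 2 were called lower, AT1G61688 (DEFL106) and AT1G24062 (DEFL68). The test covered the 93 members that passed a filter on low counts, so these were 46.2% and 2.15% of members tested; of all 18828 genes tested, 6.55% were called higher and 7.07% lower (edgeR, adjusted p under 0.05 over all genes tested). The median log2 fold change, agc1-4 over WT, was 0.52 over tested members and 0.00 over all genes tested, and it was positive in 80 members and negative in 13. Among the 43 higher members the median fold was 1.66, from 1.21 to 5.80, and 13 rose at least 2-fold, against 1.19% of all genes tested. A member that passes the filter through its agc1-4 libraries alone is more likely to be called, so the counts over tested members are a description. A change in the number of cells of a type and a change in RNA per cell cannot be told apart in whole siliques. Short transcripts outside the family were higher in agc1-4 too, as given below, and whether that tendency is technical was not tested.

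Short transcripts in general were higher in agc1-4. Tested members had annotated transcripts of 237 to 901 bases with a median of 414, where the median of all genes tested was 1758. Among the 44 tested genes of up to 400 bases that are not defensin-like, the median log2 fold change was 0.35, 31.8% were called higher and 0 lower (edgeR; 3 were lower at an unadjusted p under 0.05 and 0 in DESeq2). The 39 tested members of that length had a median of 0.57 and 46.2% called higher. Above 400 and up to 600 bases the median was 0.21 in 264 other genes, with 20.8% higher, and 0.52 in 44 members, with 52.3% higher. Other genes above 1500 bases had a median of -0.02 and 4.38% higher. For other genes of up to 400 bases the tendency was present in every library. Their median deviations on the log2 scale were -0.26, -0.19 and -0.14 in WT and 0.18, 0.27 and 0.36 in agc1-4. For the 264 other genes above 400 and up to 600 bases they were -0.081, -0.239 and -0.018 in WT. In agc1-4 they were 0.099, 0.11 and 0.174. The 2013 other genes of the next length class had -0.02, -0.114 and 0.001 in WT and 0.051, 0.037 and 0.077 in agc1-4. In both longer classes WT replicate 2 deviated most among WT libraries and WT replicate 3 least. When trends with GC content and transcript length were estimated on other genes and removed from every library, an alternative chosen after seeing the data, 18 members were called higher and 12 lower, the median log2 fold change was 0.16, and over all genes 5.65% were higher and 7.44% lower.

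**Figure D2:**
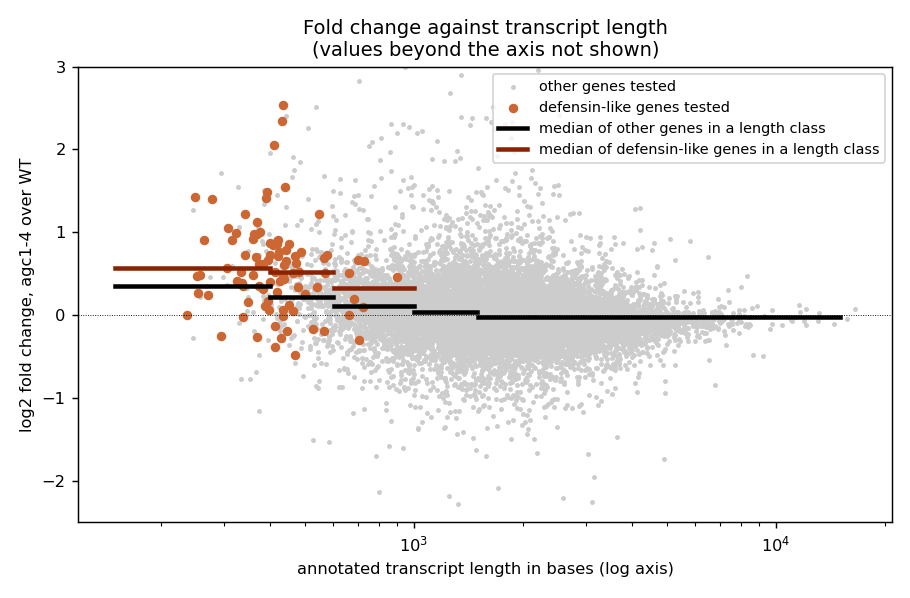
Log2 fold change, agc1-4 over WT, against annotated transcript length in bases (log axis) for the genes tested; bars are medians within length classes. Medians of other genes fall from 0.35 at up to 400 bases to -0.02 above 1500, and those of defensin-like genes are 0.57, 0.52 and 0.33 in the 3 classes they reach.

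The family as a whole, untested members included, took a larger part of the agc1-4 libraries. Summed over all 254 members, the level was 3207, 2843 and 3374 CPM (counts scaled by the library total) in WT and 4073, 4010 and 4170 in agc1-4. All 3 agc1-4 libraries lay above all 3 WT libraries, at a mean of 4084 ± 80.4 against 3141 ± 272 CPM (SD, n = 3), a ratio of 1.3; leaving SCRL10 out gave 1.35. The 161 untested members together reached 13.6, 11.8 and 14.6 CPM in WT and 24.6, 21.7 and 24.0 CPM in agc1-4, from 375 and 689 counts. In FPKM, 57 tested members had all agc1-4 libraries above all WT libraries and 3 had all of them below; of all genes tested, 14.5% and 15% did so. Among the 70 untested members with counts the same held for 10 above and 0 below. Their total counts had a median of 6.5, and the share over all untested genes was not computed. WT replicate 2 was the lowest of the 6 libraries for 57 of the 93 tested members, and without it 46 of 97 tested members were called higher.

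DEFL85 and AT5G44973 (DEFL285) were the most abundant members with the firmest calls. DEFL85 measured 638, 617 and 656 FPKM in WT and 932, 884 and 913 in agc1-4. AT5G44973 measured 295, 271 and 289.6 FPKM in WT and 462, 445 and 416 in agc1-4. In both, every agc1-4 library exceeded every WT library, by more than the spread within a genotype. For DEFL85 the log2 fold change was 0.51 ± 0.05 (SE; adjusted p = 4.58e-08, edgeR). For AT5G44973 it was 0.63 ± 0.06 (SE; adjusted p = 1.01e-08). After removal of the trends of other genes, AT5G44973 remained at 0.31 (adjusted p = 2.41e-04), while DEFL85 fell to 0.09 (adjusted p = 0.304).

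AT5G42235 (DEFL116) and its neighbour AT5G42223 (DEFL114) rose together. DEFL116 stood at 138, 119 and 149 FPKM in WT and at 215, 233 and 222 in agc1-4. DEFL114 stood at 53.8, 46.4 and 69.5 FPKM in WT and at 105, 96.7 and 113 in agc1-4. Neither gene overlapped between genotypes, and WT replicate 2 was lowest in both. The log2 fold changes were 0.72 ± 0.07 and 0.90 ± 0.12 (SE), with adjusted p-values of 4.48e-08 and 7.11e-06 in edgeR. Other abundant members that rose were AT5G04045 (DEFL301), from 117 ± 9.78 to 166 ± 6.19 FPKM, AT2G04925 (DEFL293), from 124 ± 20.3 to 201 ± 16.7, LCR24, from 166 ± 26 to 229 ± 4.15, and AT2G25185 (DEFL298), from 128 ± 16.1 to 169 ± 12.3 (mean ± SD, n = 3). After removal of the trends of other genes, DEFL293 kept its call (adjusted p = 0.00867, edgeR). DEFL301, LCR24 and DEFL298 lost theirs, at adjusted p-values of 0.105, 0.385 and 0.802.

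**Figure D3:**
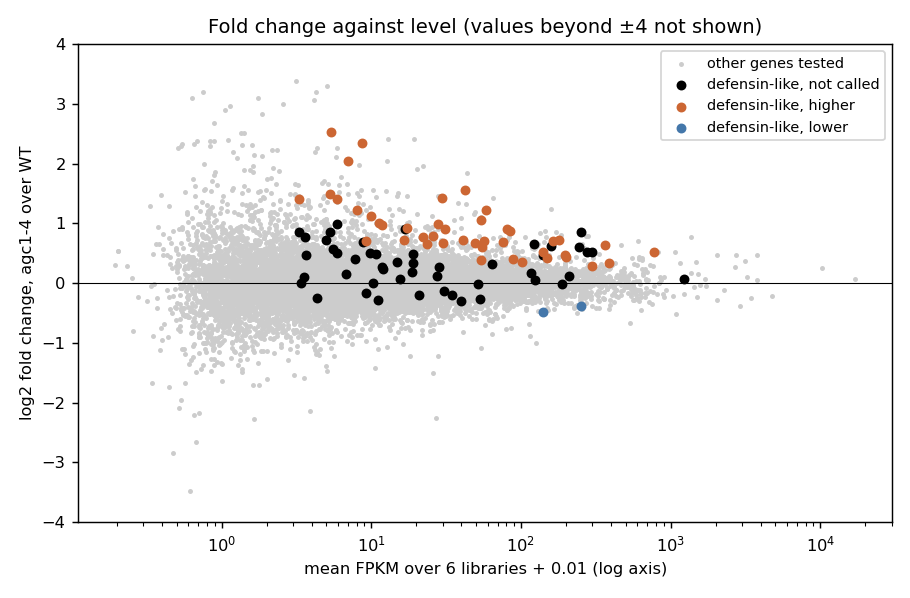
Log2 fold change, agc1-4 over WT, against mean FPKM over the 6 libraries (log axis), with other tested genes in grey. Of the 25 members of at least 100 FPKM, 11 were called higher, 2 lower and 12 not called, and the members with the largest fold changes lie below 20 FPKM.

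Among members that passed the filter, the largest fold changes were found in weakly transcribed ones, several of which passed it mainly through their agc1-4 libraries. AT5G16453 (DEFL24) was counted 3, 4 and 12 times in WT and 50, 30 and 36 times in agc1-4, which is 0.82, 0.79 and 3.27 against 9.73, 7.19 and 10.4 FPKM. DEFL47 (AT3G16895) had 3.81, 1.58 and 3.55 FPKM in WT and 17.6, 15.4 and 10.1 in agc1-4. AT2G12475 (DEFL112) had 2.01, 2.09 and 4.04 FPKM in WT and 9.06, 13.5 and 10.99 in agc1-4. In all 3 genes the lowest agc1-4 library lay above the highest WT library by more than a factor of 2. The fitted folds were 5.80 for DEFL24, 5.08 for DEFL47 and 4.14 for DEFL112, with adjusted p-values of 4.40e-05, 2.75e-06 and 4.40e-05 in edgeR. All 3 kept their calls after removal of the length and GC trends, at log2 fold changes of 2.16, 1.94 and 1.65. Below the filter, AT1G13607 (DEFL286) was counted 3, 1 and 1 times in WT and 21, 8 and 12 times in agc1-4. AT5G51845 (DEFL270) was counted 5, 5 and 2 times in WT and 24, 7 and 21 times in agc1-4. No WT library of either gene reached the lowest agc1-4 library. DESeq2, run without this filter but with its own on low mean counts, called both higher at adjusted p-values of 0.0176 and 0.0386. In DESeq2 the log2 fold change of AT1G13607 was 2.95.

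LCR73 (DEFL8) lies beside the defensin gene PDF2.6 and combined a large fold with a moderate level. It measured 23.1, 16.7 and 25.6 FPKM in WT and 67.0, 53.2 and 68.0 in agc1-4. The lowest agc1-4 library was thus above the highest WT library by a factor of more than 2, and the log2 fold change was 1.55 ± 0.14 (SE; adjusted p = 1.49e-08, edgeR). PDF2.6 next to it was not called, at 5.38, 3.78 and 1.15 FPKM in WT and 4.79, 3.02 and 3.11 in agc1-4. LCR36 rose from 35.0 ± 4.70 to 72.4 ± 4.97 FPKM, AT5G32619 (DEFL82) from 35.3 ± 8.53 to 82.3 ± 10.7, and LCR45 from 16.1 ± 7.97 to 43.2 ± 10.3 (mean ± SD, n = 3). LCR45 missed the threshold in limma on log2(FPKM + 1), with an adjusted p of 0.0641.

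The 2 lower members were abundant genes. DEFL106 (AT1G61688) fell from 291, 277 and 291 FPKM in WT to 226, 220.4 and 212 in agc1-4. DEFL68 (AT1G24062) fell from 157, 171 and 161 FPKM to 129, 101 and 119. All agc1-4 libraries lay below all WT libraries in both genes. The log2 fold changes were -0.38 ± 0.06 and -0.48 ± 0.08 (SE), with adjusted p-values of 6.03e-05 and 7.08e-05 in edgeR, and both kept their calls with any 1 library left out. DEFL69, the closest relative of DEFL68 among members, read 124, 86.2 and 169.9 FPKM in WT and 191, 193 and 191 in agc1-4. Its log2 fold change of 0.62 ± 0.27 (SE) missed the threshold (adjusted p = 0.252), and its WT libraries were spread widely; the difference between the fold changes of DEFL68 and DEFL69 was not tested. DEFL69 is named for its likeness to DEFL68 and was chosen after its values were seen.

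Several of the strongest members were not called. For SCRL10 the log2 fold change was 0.06 ± 0.05 (SE; adjusted p = 0.497, edgeR), its genotypes overlapped, and after removal of the trends of other genes the sign turned to -0.32 (adjusted p = 9.85e-05). AT2G21465 (DEFL291) had 186, 130.2 and 221 FPKM in WT and 337, 336 and 296 in agc1-4. AT1G58055 (DEFL117) had 256, 177 and 249 FPKM in WT and 295, 336 and 344 in agc1-4. Neither overlapped between genotypes, and WT replicate 2 was lowest in both. Their adjusted p-values were 0.0844 and 0.0897 in edgeR and 8.99e-09 and 1.66e-04 without WT replicate 2. AT1G13605 and LCR38 behaved alike, with adjusted p-values of 0.159 and 0.194 with all libraries and of 1.39e-05 and 1.34e-04 without WT replicate 2. AT2G24693 (DEFL87) read 105, 69.3 and 113 FPKM in WT and 149, 150 and 149 in agc1-4; its adjusted p was 0.0667 with all libraries and 2.53e-05 without WT replicate 2. Without WT replicate 3, AT2G21465, AT1G13605, LCR38 and AT2G24693 were called as well, at adjusted p-values of 0.0131, 0.0495, 0.0129 and 0.00485, and AT1G58055 was called without WT replicate 1, at 0.0376. WT replicate 2 was singled out as the lowest library, so the p-values without it are a description. After removal of the trends of other genes, AT2G21465, AT1G58055, AT1G13605 and LCR38 stood at log2 fold changes of 0.49, -0.0032, 0.22 and 0.25. None of them was called (adjusted p = 0.0802, 0.989, 0.145 and 0.329, edgeR). AT2G24693 was called higher, at 0.30 (adjusted p = 0.0466, edgeR). LCR64 was higher in every agc1-4 library as well, at 3.83 ± 0.12 FPKM in WT and 6.80 ± 2.63 in agc1-4. Its adjusted p with all libraries was 0.0872.

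Calls close to the threshold changed with the libraries used. Just inside it were AT3G24510, at 344 ± 51.1 FPKM in WT and 434 ± 13.8 in agc1-4 (adjusted p = 0.0448), and AT2G04034 (DEFL294), at 60.4 ± 16.4 and 108 ± 11.7 FPKM (adjusted p = 0.0485). AT3G24510 lost its call without WT replicate 3 or without any 1 of the agc1-4 libraries, with adjusted p-values of 0.0612 to 0.132. AT2G04034 lost its call when WT replicate 3 was left out, or replicate 2 or 3 of agc1-4, with adjusted p-values of 0.0999 to 0.151, and with the replicate number as a block, at 0.12. Just outside were AT5G55131 (DEFL84), the neighbour of DEFL85, at 11.7 ± 6.92 and 21.7 ± 4.6 FPKM (adjusted p = 0.0573), and LCR84, at 57.7 ± 8.69 and 71.2 ± 4.24 (adjusted p = 0.0577). Both were called without WT replicate 1, at adjusted p-values of 0.00155 and 0.0287, and AT5G55131 also without agc1-4 replicate 1, at 0.0454. AT1G54445 (DEFL90), at 269 ± 32.5 and 327 ± 6.16 FPKM, had an adjusted p of 0.00597 with all libraries and 0.0662 without WT replicate 1. Of the 43 higher members, 29 were called higher whichever library was left out.

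Grouped by symbol, higher calls in edgeR fell on LCR, SCRL and ATTI genes and on members without such a name, and on none of the 3 PDF members that passed the filter. Among 58 LCR genes, 40 had a count, 24 were tested and 12 were called higher, with 0 lower (0 also at an unadjusted p under 0.05 and 0 in DESeq2) and a median log2 fold change of 0.59. Among 23 SCRL genes, 14 had a count, 6 were tested and 4 were called higher, with a median of 0.53. The 3 ATTI genes, named as trypsin inhibitors, were all tested: ATTI4 rose from 18.3 ± 1.001 to 28.7 ± 3.00 FPKM (SD, n = 3), while ATTI3 stood at 118 ± 24.8 and 165 ± 32.8 and ATTI6 at 10.97 ± 2.02 and 12.9 ± 2.70 without a call. Of 11 members named PDF, 5 had a count and 3 were tested with 0 calls in edgeR and a median of -0.19; of these 3, 1 had an unadjusted p under 0.05 and 0 were called in DESeq2. PDF2.1, which did not pass the filter, was called higher in DESeq2 (adjusted p = 0.0463). The 159 members with no such symbol included 57 tested, of which 26 were higher and 2 lower, with a median of 0.53. After removal of the trends of other genes, PDF2.3 and PDF3.2 were called lower, at log2 fold changes of -0.46 and -0.43. DESeq2 made 40 higher and 2 lower calls among the 93 members tested in edgeR, and 3 higher calls among the others, PDF2.1, AT1G13607 and AT5G51845; 3.65% and 3.74% of its 21516 genes were called.

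Higher calls were made in every class of cysteine codon number. Of 43 tested members with 8 cysteine codons 19 were called higher, of 42 with more than 8 it was 21, and of 6 with fewer it was 3. Over the 91 tested members with a locus, the Spearman correlation of the log2 fold change was -0.03 with the number of cysteine codons, -0.06 with coding length, -0.11 with GC content, -0.18 with transcript length and -0.21 with mean FPKM. These correlations run across genes measured in the same libraries, and they are given as a description.

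Many members are neighbours in the genome. Allowing at most 1 gene between them, 102 members formed 40 clusters of up to 5. Of 46 tested members inside clusters 22 were called higher, and of 45 outside it was 21. In 15 clusters at least 2 members were tested: in 3 all tested members were called higher, in 9 some were, and in 3 none was. Neither of the 2 lower members lay in a cluster, so no cluster could hold both a higher and a lower member. SCRL4 and SCRL5, neighbours of 72.2% protein identity, both rose: SCRL4 from 4.53, 4.85 and 4.98 FPKM in WT to 11.3, 11.4 and 10.8 in agc1-4, and SCRL5 from 36.8, 33.0 and 44.2 to 57.1, 56.3 and 66.5. Their log2 fold changes of 1.22 ± 0.22 and 0.66 ± 0.10 (SE) had adjusted p-values of 2.76e-04 and 3.47e-05 in edgeR. The cluster from AT4G29273 to AT4G29290 holds 5 LCR genes, of which LCR23, LCR21 and LCR24 rose, LCR22 was not called, and LCR26 had 4 counts in 1 library. In the cluster from AT4G30064 to AT4G30074, LCR61, PDF3.2 and LCR19 had log2 fold changes of -0.01, -0.19 and -0.17 and none was called.

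**Figure D4:**
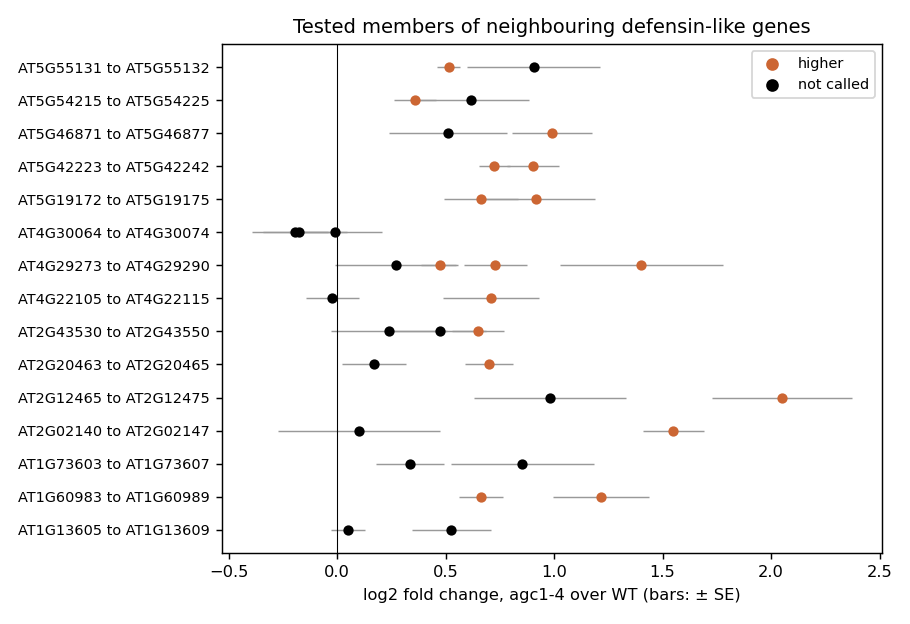
Log2 fold change ± SE, agc1-4 over WT, of the tested members in the 15 clusters of neighbouring members with at least 2 tested; each row is a cluster named by its first and last locus. In 3 clusters every tested member was called higher, in 9 some were, and in 3 none was.

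The close relatives LCR48 and LCR49 both rose. LCR48 went up from 158, 165 and 185 FPKM in WT to 229, 219 and 241 in agc1-4. Its relative LCR49, whose sequence is printed beside it, rose from 2.11, 2.84 and 3.32 to 7.11, 9.02 and 7.34 FPKM. Both were separated between genotypes, at log2 fold changes of 0.44 ± 0.07 and 1.49 ± 0.33 (SE, adjusted p = 4.47e-05 and 0.00229, edgeR). The difference between them was not tested. LCR49 was counted only 7, 13 and 11 times in WT and 33, 34 and 23 times in agc1-4. After removal of the trends of other genes LCR48 lost its call, at 0.05 (adjusted p = 0.677, edgeR). LCR49 kept its call, at 1.05 (adjusted p = 0.0335). Of the 16 pairs of tested members with at least 60% protein identity, the closest were LCR65 and AT1G49715 (DEFL175), of 97.7% identity. Neither was called, and their reads could have been divided between them, as could those of other close copies. Only 1 member had an estimated count that was not whole.

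Removing the trends with GC content and length separated members that kept their calls from members that lost them. The 17 members called higher in the original fit and after both removals, with trends from other genes and from all genes (5.65% of all genes higher and 7.48% lower in the latter), were DEFL24, DEFL47, DEFL112, LCR73, DEFL82, SCRL4, LCR49, DEFL285, DEFL116, LCR36, DEFL114, AT1G13755 (DEFL260), SCRL5, LCR30, ATTI4, DEFL293 and LCR45. AT1G13755 rose from 58.5 ± 9.89 to 93.6 ± 4.49 FPKM and LCR30 from 21.4 ± 1.67 to 40.3 ± 5.84 (mean ± SD, n = 3). With the trends of other genes removed, 26 higher calls were lost, among them those of DEFL85, LCR48 and LCR24, and 10 members without a call before were called lower, among them SCRL10, SCRL14, PDF2.3 and LCR60. DEFL106 and DEFL68 were lower in all 3 fits, at -0.78 and -0.83 after removal of the trends of other genes. How much of the rise of the family goes with transcript length and how much does not cannot be told apart where members and other short genes move in the same libraries.

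**Figure D5:**
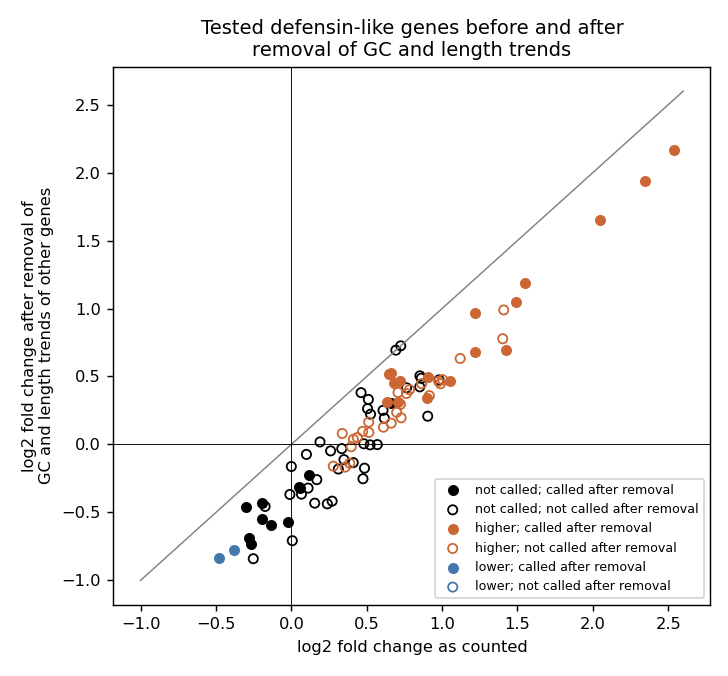
Log2 fold change of the 93 tested members as counted (x axis) and after removal of the GC and length trends of other genes (y axis); filled points were called after removal, and the diagonal marks equal values. Nearly all points lie below the diagonal, with 18 members called higher and 12 lower after removal.

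Counts in 1 genotype only were found for 24 of the 163 members with a count, 13 in agc1-4 alone and 11 in WT alone, and 4 of the 24 had more than 3 counts. PDF2.1 had 0 counts in all WT libraries and 11, 5 and 1 in agc1-4. Against a floor of 3 counts over the WT group its fold was 5.51, higher in agc1-4. For LCR86, where WT had none and agc1-4 had 1, 3 and 2 counts, the same floor gave a fold of 1.94. LCR26 had 4 counts in agc1-4 replicate 2 alone. For AT5G48605 the WT libraries had 4, 0 and 2 counts against 0 for agc1-4. Against a floor of 3 counts over the agc1-4 group its fold was 2.06, lower in agc1-4. It was not called in unfiltered edgeR (adjusted p = 0.148) or in unfiltered limma on log2(FPKM + 1) (0.163). SCRL8 had 3 counts in agc1-4 replicate 1, which is at the floor. None of these genes passed the edgeR filter. PDF2.1 was called higher in DESeq2 (adjusted p = 0.0463) and in edgeR without the filter (0.00498) and not in limma on log2(FPKM + 1) without a filter (0.0593), whereas LCR86 was called in that limma fit (0.0332) and not in unfiltered edgeR (0.157). The floors cover counting error of the group without counts only. Counts seen in the other genotype are taken as exact, so these folds are not lower bounds.

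Classical defensin genes that the descriptions do not call defensin-like complete the PDF family. Of 15 PDF genes, 9 were at 0 in every library, among them PDF1.1 and the jasmonate-responsive PDF1.2A, PDF1.2B and PDF1.2C. PDF2.2, which is no member, had 5.02, 3.42 and 6.77 FPKM in WT and 22.5, 17.6 and 20.8 in agc1-4. Every agc1-4 library was more than 2-fold above every WT library, and the log2 fold change was 2.04 ± 0.19 (SE; adjusted p = 1.18e-08, edgeR). It was the 1 call among the 4 PDF genes tested. PDF2.1 and PDF2.3 lie near it, and whether its reads entered the counts of PDF2.1 was not tested. ERF1 and ORA59, transcription factors that activate PDF1.2, reached at most 0.34 and 0.22 FPKM in any library. Of the 5 jasmonate and ethylene regulators tested, EIN3 was called lower, from 38.3 ± 1.92 to 32.8 ± 1.28 FPKM (adjusted p = 0.025), a call lost in 5 of the fits that left out 1 library.

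Peptide signals and receptors of reproduction were mostly weak or not called. The LURE1 genes had too few counts for testing, with sums over 5 genes of 1.79 to 5.39 FPKM. Of 3 tested LURE receptors, MIK2 fell from 21.1 ± 2.25 to 17.2 ± 0.71 FPKM (adjusted p = 0.00718, edgeR), a call lost in 2 of the fits that left out 1 library. ESF1.2, a cysteine-rich peptide of early seed development, had 54.0, 44.4 and 61.7 FPKM in WT and 92.0, 84.3 and 95.7 in agc1-4, without overlap. Its log2 fold change was 0.78 ± 0.11 (SE, adjusted p = 6.83e-06, edgeR). After removal of the trends of other genes it was 0.35 (adjusted p = 0.011, edgeR). In the original fit ESF1.2 was the 1 call among 3 tested genes of 8 egg-cell and seed peptides. Among 5 tested thionin and GASA genes, GASA1 rose from 871 ± 104 to 1255 ± 11.1 FPKM, GASA4 fell from 16.0 ± 4.44 to 10.3 ± 0.82, GASA14 fell from 89.2 ± 4.98 to 76.6 ± 8.14, and the thionin THI2.1 stood at 1603 ± 76.8 and 1563 ± 85.0. The calls of GASA4 and GASA14 were each lost in 4 of the fits that left out 1 library.

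Marker levels of the parts of the silique are given beside these results, and their part in them was not tested. For comparison, 6.55% of all genes tested were called higher and 7.07% lower (edgeR). Endosperm markers had 4 of 9 tested genes higher (MPC, FWA, AGL40 and ZOU) and 0 lower in edgeR (1 at an unadjusted p under 0.05, 0 in DESeq2), with summed levels of 137 to 142 FPKM in WT and 182 to 204 in agc1-4. The embryo regulators LEC1 and WOX8 were higher among 3 tested embryo markers. WOX9 was not called, at 2.32 ± 0.29 FPKM in WT and 2.09 ± 0.64 in agc1-4 (mean ± SD, n = 3). WOX2, at most 0.20 FPKM in any library, was not tested. The sums were 4.57 to 6.50 FPKM in WT and 13.9 to 14.5 in agc1-4. Most of this rise was LEC1, which went from 2.11 ± 0.91 to 9.69 ± 0.70 FPKM. Of 8 tested pollen markers PRK2A was higher, a call lost in 1 of the fits that left out 1 library, with sums of 154 to 202 FPKM in WT and 188 to 223 in agc1-4. Pollen markers DUO1 and HAP2 were at 0 and at up to 0.22 FPKM. The synergid regulator MYB98 reached at most 0.40 FPKM and LRE 0.48, and neither was tested. NTA and FER were tested with 0 calls in edgeR (2 at an unadjusted p under 0.05, 0 in DESeq2). The sums of 84.8 to 86.0 FPKM in WT and 76.7 to 81.1 in agc1-4 were nearly all FER. FER alone had 82.9 to 84.0 FPKM in WT and 74.4 to 78.5 in agc1-4. NTA went the other way, from 1.54 to 1.60 FPKM in WT to 2.04 to 2.52 in agc1-4. Of 6 seed coat markers TT8 was higher, with sums of 614 to 821 and 711 to 792 FPKM, and of 6 fruit wall markers RPL and FUL were lower, with sums of 447 to 474 and 461 to 503 FPKM. The call of FUL was lost in 4 of the fits that left out 1 library.

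Motif shares upstream of higher members are given beside those of other genes. Searched on both strands in the 250 bases before each gene's annotated start, GTAAC, the element bound by MYB98, was found for 32.1% of 27549 protein-coding genes, 32.1% of 252 members, 30.2% of the 43 higher members and 21.7% of the 46 members tested and not called. CATGCA, the RY element of seed genes, was found for 8.41%, 7.14%, 4.65% and 4.35% of them. GCCGCC, the element of ethylene response factors, was found for 1.88%, 1.19%, 0% and 0%. A match describes these letters in this window alone.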

How the data were processed

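Values came from 1 table of the whole series, deposited by the authors, with 2 columns for each of the 6 libraries. Per the file headers, 6 deposited columns hold estimated counts per gene and the other 6 hold FPKM from the authors. Aligner, counter, build and strandedness are not given in the sources used here, so no coordinates are printed. RefSeq TAIR10.1 was used by locus for names, neighbours, lengths and coding sequences, and protein identity came from a global alignment of translated coding sequences.

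Estimated counts were rounded and tested in R 4.3.3 with edgeR 4.0.16 (TMM, filterByExpr, robust quasi-likelihood F-test, no covariates), with Benjamini-Hochberg adjustment over all 18828 genes tested. SEs are the size of the log2 fold change over the square root of F. CPM are summed counts over the library total. Where no count was seen, up to 3 counts are allowed, or 0.254 to 0.376 CPM, covering counting error only. The procedure was tested on simulated counts that held no GC or length trends, so that test does not cover such trends. Members, the 12 lists of 88 genes and the trend removal were chosen with earlier results of these data known.

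Named genes follow a rule: called members (at most 30 by adjusted p), the 10 most abundant, up to 5 uncalled members without overlap, up to 5 with counts in 1 genotype, the 2 nearest each side of the threshold, and called genes of the lists (up to 4 each). Other members named as neighbours, relatives or examples (LCR19, LCR21 to LCR23, LCR61, LCR65, DEFL69, DEFL175, ATTI3, ATTI6, SCRL14, LCR60, DEFL270, DEFL286 and the PDF genes) were chosen after their values were seen. Alternatives were RLE size factors, no filter or a minimum count of 5, DESeq2 1.42.0, limma 3.58.1 on log2(FPKM + 1) and log2(FPKM + 0.1), a block for replicate number, libraries left out 1 at a time, a threshold of 0.01, near-identical copies summed, and 2 removals of GC and length trends by splines of 5 degrees of freedom each, on all genes or on other genes.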

Additional observations from a re-analysis of the deposited data

How the results depend on the processing

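The 43 higher and 2 lower calls of members were 43 and 2 with RLE size factors, with near-identical copies summed and with DESeq2 (over all members it tested), and 44 to 49 and 2 to 3 with the other filters and limma. Only the removals of GC and length trends, chosen after seeing the data, moved them by over 1.5 times: to 18 higher, 12 lower and a median log2 fold change of 0.16 with trends of other genes, and to 19, 14 and 0.13 with trends of all genes. The same removals turned the sign of AT1G54445 (-0.16 and -0.21), AT1G58055 (-0.0032 and -0.045), LCR84 (-0.18 and -0.23) and SCRL10 (-0.32 and -0.34). The median was 0.63 with limma on log2(FPKM + 0.1) and 0.38 with limma on log2(FPKM + 1) without a filter. The 2564 genes called were 1590 with DESeq2, 1578 with that unfiltered limma fit and 1428 at an adjusted p under 0.01; the cause was not tested, apart from the stricter threshold. With 1 library left out, members called higher were 33 to 54, members lower 2 to 3, all genes called 1688 to 2816, the median 0.44 to 0.66 and the ratio of summed levels 1.24 to 1.35; the fewest genes were called without agc1-4 replicate 2, and the highest median came without WT replicate 3. With the replicate number as a block, 47 members were higher and 3 lower; same-numbered libraries share only a number, with correlations of their deviations of -0.0304, 0.00502 and 0.0338. Members at a few counts per library limit what could be tested: 70 with counts did not pass the filter.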
